A study of Oryza sativa with 11 samples.

Results

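The genes described here encode the enzymes that ferment pyruvate in rice root tips: alcohol dehydrogenase (ADH), pyruvate decarboxylase (PDC) and L-lactate dehydrogenase (LDH). They were taken as every gene whose RefSeq symbol or synonym is ADH1, ADH2 or PDC1 to PDC4, with or without the prefix Os, together with the pyruvate decarboxylase isozyme of locus LOC_Os01g06660 and the lactate dehydrogenase of locus LOC_Os06g01590, which are listed in the tables of the study. The rule gave 7 genes. Of these, 5 matched by name (ADH1, ADH2, PDC1, PDC2 and PDC3) and no gene matched PDC4. ADH1 has no probe set in the annotation used and is not measured here. The remaining 6 genes are read by 7 probe sets, since PDC2 has a pair of them, out of 57258 probe sets and 17905 named genes on the array. The isozyme of LOC_Os01g06660 and the lactate dehydrogenase were listed by the study from these same arrays. So was PDC1, although it was chosen here by name. The salt values of these genes are therefore not independent evidence.

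Fermentation lets a cell regenerate the NAD that glycolysis needs when the mitochondria lack oxygen to accept its electrons. Lactate dehydrogenase does so in a single step, reducing pyruvate to lactate. In the ethanol branch, pyruvate decarboxylase removes carbon dioxide from pyruvate to form acetaldehyde, and alcohol dehydrogenase reduces the acetaldehyde to ethanol. In cereal roots these genes are best known for their induction by flooding. The dense, dividing tissue at the very apex of a root uses much oxygen even in well aerated media. The tips of 2 cm used here also hold other tissue.

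The study grew 2 closely related rice genotypes, the salt-sensitive IR29 and the salt-tolerant recombinant inbred line FL478, with nutrient solution, in tanks of sand by the Methods of the study and in hydroponics by the sample labels. Salt was given from 22 days after germination as sodium chloride with calcium chloride, raised over 3 days to a conductivity of 7.4 dS/m (about 60 mM NaCl), while control tanks stayed at 1.1 dS/m. Root tips of 2 cm were taken 30 days after germination, and their total RNA was hybridised to Affymetrix Rice Genome Arrays. The 4 groups were FL478 control (3 arrays), FL478 salt (3 arrays), IR29 control (2 arrays) and IR29 salt (3 arrays), with each array labelled as its own biological replicate. The question of the comparison is how the roots of either genotype respond to salt, and the precision is limited by these few arrays.

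Every array had a 2% trimmed mean signal of 500.1, and between 36.6% and 41.9% of its probe sets had a signal under 32 intensity units. Summed signals of 6 root marker genes were 88566 to 94543 in the FL478 control and 70439 to 86368 in FL478 salt, without overlap. In IR29 they overlapped, at 88947 to 103838 in the control and 82134 to 92315 under salt. Sums of 6 genes of dividing cells lay between 7832 and 11781 on all arrays, and those of 3 shoot genes between 203 and 730. By log2 difference under salt, all 6 genes of dividing cells were higher in FL478 and all 6 lower in IR29, none of them called. The part of such shifts in the enzyme values was not tested. The log2 ratio of the 3′ to the 5′ GAPDH control probe set, a sign of RNA integrity, was 0.51 to 0.66 on the control arrays and 0.65 to 1.03 on the salt arrays. It was higher on every salt array than on every control array of the same genotype. A fit with this ratio as a covariate was run. Ratio and salt go together in both genotypes, so that fit cannot tell their parts in the salt differences apart.

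Signals are linear intensity units, and a difference is given on the log2 scale after adding 32, which shrinks the differences of dim probe sets. Tests are those of limma over all 57258 probe sets, and a difference counts as called where its p, adjusted by Benjamini-Hochberg, is under 0.10. The order of signals between different genes depends on their probes, so levels are compared only within a probe set. The tissue holds many cell types, and fewer cells of a type and less RNA per cell cannot be told apart.

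At the last step of the ethanol branch, ADH2 showed no salt difference larger than the spread of its replicates. Its signal in the FL478 control was 24885, 32652 and 20941 in replicates 1 to 3, and under salt 29163, 34221 and 18380. In IR29 it was 24953 and 32451 in the control and 31520, 35183 and 26044 under salt. All 4 groups overlapped, and the highest and the lowest array of the series were both salt arrays. The log2 difference of salt against control was 0.04 in FL478 (SE 0.26, 95% interval -0.55 to 0.62, limma adjusted p = 0.989) and 0.11 in IR29 (SE 0.29, interval -0.54 to 0.76, limma adjusted p = 1). By group mean the order was IR29 salt, IR29 control, FL478 salt and FL478 control, and no neighbours in that order were separated.

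PDC2, which makes the acetaldehyde that ADH reduces, was likewise without a called difference on both of its probe sets. On the first, the FL478 control gave 6260, 11030 and 3705 and FL478 salt 6737, 6928 and 4936, while the IR29 control gave 3031 and 6808 and IR29 salt 4249, 4694 and 2711. On the second, the same arrays gave 19116, 27610 and 14112, then 21333, 22001 and 16369, then 12965 and 22588, and last 18104, 19539 and 12477. Salt and control overlapped in both genotypes on both probe sets, and on the first the IR29 salt arrays were all below the FL478 salt arrays. Salt against control was -0.05 and 0.01 log2 in FL478 (SE 0.42 and 0.30) and -0.26 and -0.06 in IR29 (SE 0.47 and 0.34), with limma adjusted p between 0.99 and 1. The difference between genotypes under salt on the first probe set was -0.69 (SE 0.42, limma adjusted p = 0.604).

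**Figure D1:**
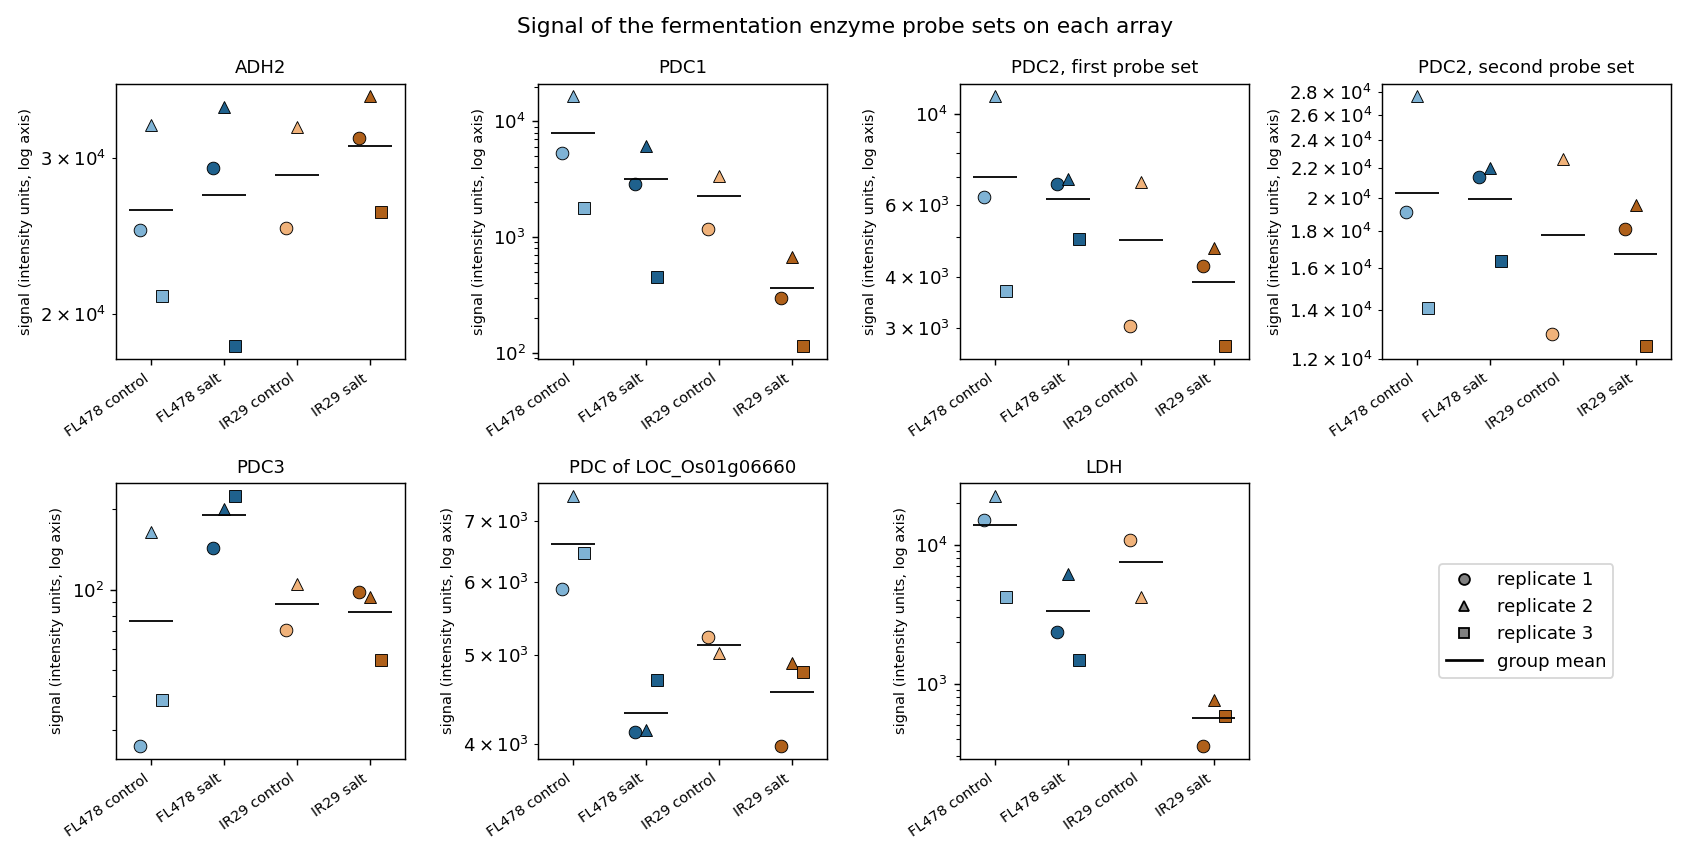
Signal of each fermentation enzyme probe set (vertical axis, intensity units, log scale) on the 11 arrays by group, with the symbol giving the replicate number and the bar the group mean. LDH lies between 355 and 768 on the IR29 salt arrays against 4243 and 10794 in the IR29 control, whereas the ADH2 groups overlap throughout.

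PDC1 varied most from array to array. In the FL478 control its signal was 5334, 16548 and 1798, and in FL478 salt 2865, 6140 and 450.5. In IR29 it was 1179 and 3371 in the control and 296.9, 673.3 and 113.7 under salt. The FL478 groups overlapped, while the IR29 salt arrays were all below both IR29 controls. Salt against control was -1.41 log2 in FL478 (SE 1.04, limma adjusted p = 0.756) and -2.65 in IR29 (SE 1.16, limma adjusted p = 0.791), neither of which was called. With single arrays left out the value ran from -2.21 (without FL478 salt replicate 2) to -0.37 (without FL478 salt replicate 3) in FL478, and from -3.40 (without IR29 control replicate 1) to -1.90 (without IR29 control replicate 2) in IR29. Within FL478, deviations of same-numbered control and salt arrays correlated at only 0.33, 0.14 and 0.19. Taking them as pairs rests on these values, not on the labels. PDC1 was 1.86, 2.70 and 3.99 times lower under salt in the 3 same-numbered FL478 pairs. With replicate number as a block on the 6 FL478 arrays alone, the PDC1 difference kept its value and its SE fell to 0.25 (limma adjusted p = 0.342), still not a call.

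A further probe set of the study's tables, described there as a pyruvate decarboxylase of locus LOC_Os05g39320, has the locus number next to that of PDC1 (LOC_Os05g39310) and is no member. Its signal was 8677, 15598 and 2988 in the FL478 control, 5605, 8932 and 1444 in FL478 salt, 3673 and 4777 in the IR29 control and 1212, 2486 and 599.4 in IR29 salt. The same arrays were high and low as for PDC1, and again the groups were separated in IR29 and overlapped in FL478. Its log2 difference was -0.82 in FL478 (SE 0.77, limma adjusted p = 0.821) and -1.75 in IR29 (SE 0.86, limma adjusted p = 0.841). Whether transcripts of one of these loci also bind the probes of the other was not tested.

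PDC3 was dim. Its signal in FL478 was 26.1, 164.5 and 38.8 in the control and 143.9, 201.1 and 224.3 under salt, and in IR29 71.0 and 105.3 in the control and 98.5, 94.1 and 54.8 under salt. Control replicate 2 of FL478 stood within the range of the salt arrays, so the FL478 groups overlapped, and the FL478 salt arrays were all above the 5 arrays of IR29. The log2 difference was 1.23 in FL478 (SE 0.41, 95% interval 0.33 to 2.14, limma adjusted p = 0.380) and -0.08 in IR29 (SE 0.45, limma adjusted p = 1). The difference between the responses was -1.31 (SE 0.61, 95% interval -2.67 to 0.04, limma adjusted p = 1).

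The isozyme of LOC_Os01g06660 had the most even signal of the enzymes. It was 5895, 7444 and 6448 in the FL478 control, 4125, 4145 and 4702 in FL478 salt, 5235 and 5029 in the IR29 control and 3984, 4904 and 4789 in IR29 salt. Salt arrays were below the control arrays in both genotypes without overlap, a pattern that 1.57% of all probe sets shared. In FL478 the log2 difference was -0.60 (SE 0.15, limma adjusted p = 0.243), a signal 1.52 times lower, and in IR29 it was -0.18 (SE 0.17, limma adjusted p = 0.967). The groups ranked FL478 control, IR29 control, IR29 salt and FL478 salt, and only the last pair in that order overlapped. The difference between the genotypes' responses was 0.43 (SE 0.23, 95% interval -0.09 to 0.94, limma adjusted p = 1).

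In the lactate branch, the LDH signal had the largest salt difference of the 7 probe sets. It was 15066, 22576 and 4202 in the FL478 control and 2352, 6154 and 1475 in FL478 salt, with control replicate 3 inside the range of the salt arrays. In IR29 it was 10794 and 4243 in the control and 354.9, 768.2 and 580.8 under salt, all salt arrays below both controls. FL478 salt was above IR29 salt on every array, and the other neighbouring groups overlapped. The log2 difference was -2.01 in FL478 (SE 0.68, limma adjusted p = 0.404), or 4.02 times lower, and -3.57 in IR29 (SE 0.77, limma adjusted p = 0.397), or 11.8 times lower. With single arrays left out it ran from -2.72 (without FL478 control replicate 3) to -1.51 (without FL478 control replicate 2) in FL478, and from -4.24 (without IR29 control replicate 2) to -2.90 (without IR29 control replicate 1) in IR29. In FL478 all 3 same-numbered pairs had less LDH signal under salt, by 6.41, 3.67 and 2.85 times. Under salt IR29 had 4.89 times less than FL478 (log2 -2.29, SE 0.68, limma adjusted p = 0.199), and without salt the difference was -0.73 (SE 0.77, limma adjusted p = 0.894).

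**Figure D2:**
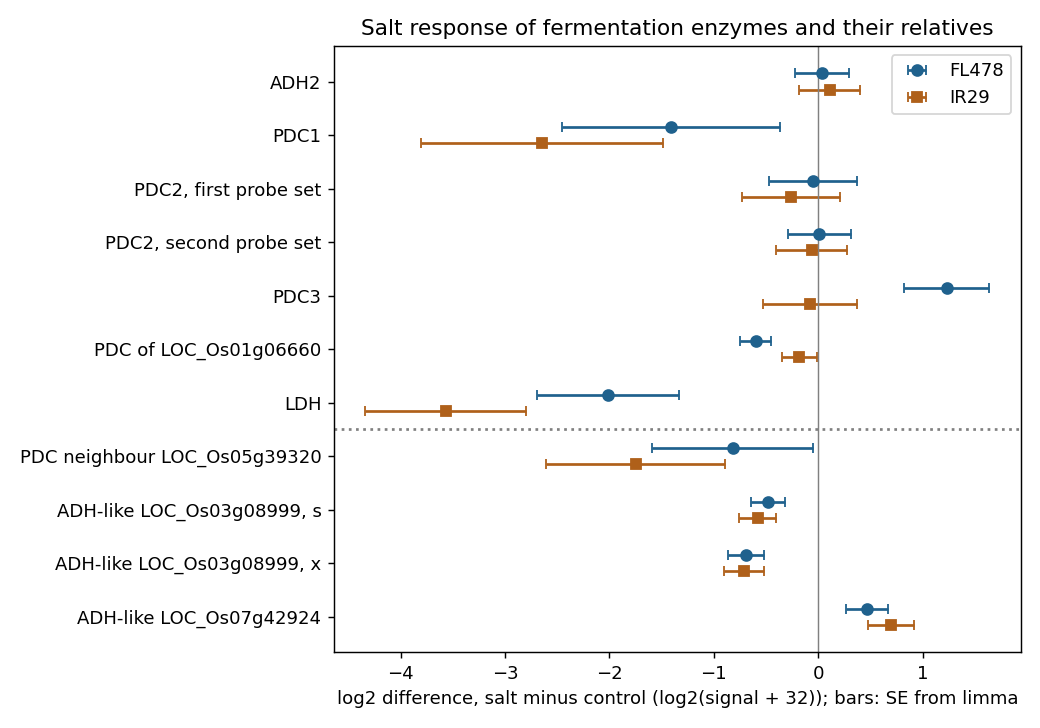
Log2 difference of salt minus control (horizontal axis) with its SE from limma for the fermentation enzymes, above the dotted line, and for related probe sets of the study's tables, below it, in FL478 (circles) and IR29 (squares). LDH and PDC1 lie farthest to the left in both genotypes, and ADH2 and PDC2 lie near 0.

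Counted together, none of the 7 probe sets was called in either genotype, against 0.169% of the array in FL478 and 0.00524% in IR29. At an unadjusted p under 0.05, limma gave 3 of 7 in FL478 (PDC3, the isozyme of LOC_Os01g06660 and LDH; 8.97% of all probe sets) and 2 of 7 in IR29 (PDC1 and LDH; 6.18%). Salt arrays lay wholly below the controls for 1 of 7 in FL478, against 6.95% of all probe sets, and for 3 of 7 in IR29, against 10.9%. No member lay wholly above. Separation of salt from control in either direction was found for 14.0% of the array in FL478 and 21.4% in IR29. With 7 probe sets, the lack of a member wholly above is no result about them. The isozyme of LOC_Os01g06660 and LDH are members because the study listed them from these arrays, and PDC1 is listed there too. Counts that include these genes are therefore not independent evidence when set against the share of the array. Median log2 differences over the 7 were -0.05 in FL478 and -0.18 in IR29, and 0 over all probe sets in both. With 200 simulated probe sets of the FL478 comparison lowered by 2 on the log2 scale, 82.3% were called. That share cannot be carried over to LDH and PDC1, whose residual SD was 0.986 and 1.51. The median was 0.292 for probe sets above the median level, and recovery at larger spreads was not tested separately.

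The difference between the salt responses of IR29 and FL478 was called for none of the 7 and for no probe set on the array (percent called 0), while 4.53% of all probe sets and none of the 7 had an unadjusted limma p under 0.05. The estimates were -1.56 for LDH (SE 1.03, 95% interval -3.84 to 0.73) and -1.24 for PDC1 (SE 1.55, interval -4.70 to 2.23). The larger values of both enzymes in IR29 are thus not shown to differ from those in FL478. For ADH2 the estimate was 0.07, with an interval from -0.80 to 0.95.

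Between the genotypes, the main fit, which has no replicate block, called none of the 7 without salt, against 0.597% of all probe sets, or under salt, against 1.75%. No member reached an unadjusted limma p under 0.05 without salt, where 7.92% of all probe sets did. Under salt, limma gave an unadjusted p under 0.05 for LDH, PDC1 and PDC3, all lower in IR29, and 11.2% of all probe sets passed it. IR29 lay wholly below FL478 under salt for LDH, PDC3 and the first PDC2 probe set (7.86% of all probe sets), and without salt for the isozyme of LOC_Os01g06660 alone (11.3%). For no member did IR29 lie wholly above. Between the genotypes, groups separated in either direction made up 15.6% of all probe sets under salt and 23.9% without. With 7 probe sets this absence is no result about the members. PDC1 was -2.67 log2 in IR29 against FL478 under salt (SE 1.04, limma adjusted p = 0.352) and -1.43 without (SE 1.16, limma adjusted p = 0.855). With replicate number as a block, PDC1 was called under salt (limma adjusted p = 0.00733) and without (limma adjusted p = 0.059). The replicate numbers were not taken as pairs between the genotypes.

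A comparison of salt with control averaged over both genotypes, which shares its arrays with the comparisons above and was added after they were seen, called LDH alone of the 7, against 0.547% of all probe sets and 0.355% called lower. At an unadjusted limma p under 0.05 it gave LDH, PDC1 and the isozyme of LOC_Os01g06660, against 10.3% of all probe sets. The study listed these genes from the same arrays, so neither result is independent evidence. LDH fell by 2.79 on the log2 scale (SE 0.51, limma adjusted p = 0.0797), or 6.90 times. The call was kept without FL478 control replicate 3 or FL478 salt replicate 2 and lost without any other single array, with an adjusted p from 0.0679 to 0.269 and a log2 difference from -3.14 to -2.45. With the GAPDH ratio as a covariate the difference was -2.92 (SE 0.80, limma adjusted p = 0.613), and no probe set on the array was called in that fit. PDC1 averaged -2.03 (SE 0.78, limma adjusted p = 0.398) and the isozyme of LOC_Os01g06660 -0.39 (SE 0.12, limma adjusted p = 0.263).

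The spread within groups was itself unequal among the enzymes. The residual SD on the log2 scale was 1.51 for PDC1, which 0.178% of the 28629 probe sets above the median level exceeded, and 0.986 for LDH, which 1.39% exceeded. It was 0.585 and 0.403 for PDC2, 0.566 for PDC3 and 0.340 for ADH2, around a median of 0.292. For the isozyme of LOC_Os01g06660 it was 0.139, and 90.7% of those probe sets varied more.

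The probe sets of ADH2, PDC1 and PDC2 were high and low on the same arrays. Replicate 2 was the highest of its group in all 4 groups, and replicate 3 the lowest in the 3 groups that have one, on these 4 of the 7 probe sets, which read 3 of the 6 measured genes. Over the array 0.865% of probe sets had this order, and 1.52% of those above the median level. Replicate 2 stood 0.75 to 1.60 log2 above its group mean for PDC1 and 0.19 to 0.38 for ADH2, and replicate 3 deviated by -2.09 to -1.15 for PDC1 and by -0.52 to -0.24 for ADH2. The probe set of LOC_Os05g39320 had the same order, whereas LDH, PDC3 and the isozyme of LOC_Os01g06660 did not. For LDH, replicate 2 was the highest in 3 groups but the lower one in the IR29 control. The order was noticed in these values and was not tested, and what the replicate numbers share is not given in the labels.

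**Figure D3:**
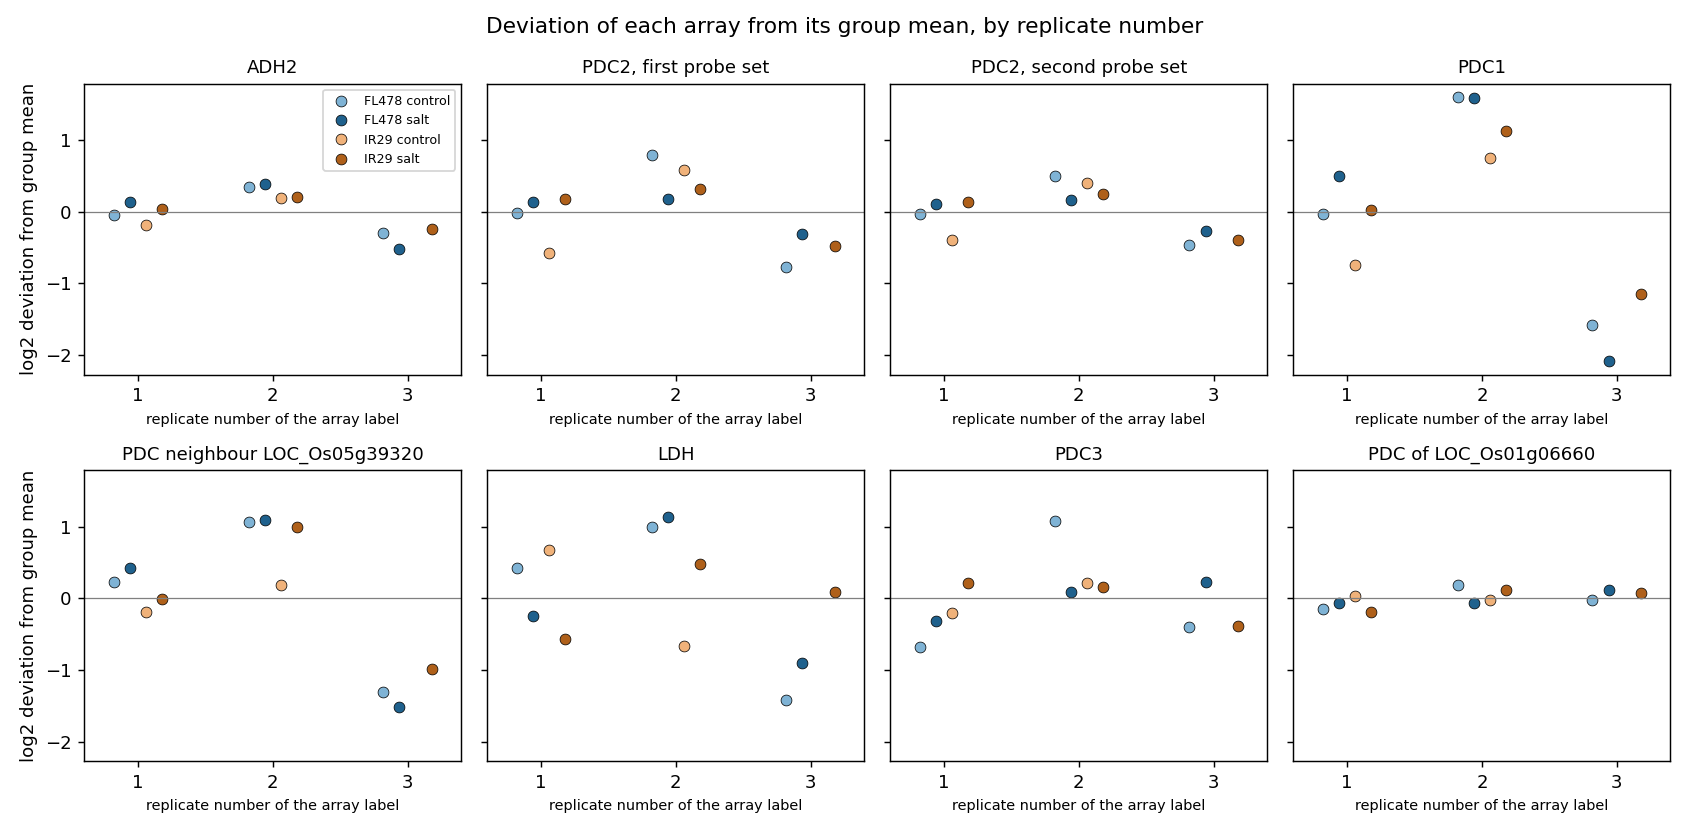
Deviation of each array from its group mean (vertical axis, log2) by the replicate number in its label (horizontal axis) for 7 probe sets of the fermentation enzymes and for LOC_Os05g39320, coloured by group. For ADH2, PDC1 and PDC2 all replicate 2 arrays are above 0 and all replicate 3 arrays below it.

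The study's tables hold 3 further related probe sets, 2 of the locus LOC_Os03g08999, described as an alcohol dehydrogenase, and 1 of LOC_Os07g42924, described likewise. As they were listed from these arrays, their direction is not independent evidence. The brighter probe set of LOC_Os03g08999, whose probes can also match other transcripts, gave 4171, 4239 and 4230 in the FL478 control and 3351, 2706 and 3002 in FL478 salt, then 6377 and 5565 in the IR29 control and 4321, 3368 and 4296 in IR29 salt. Salt was below control in both genotypes without overlap, and IR29 was above FL478 in either condition. Its log2 differences were -0.48 in FL478 and -0.58 in IR29 (SE 0.16 and 0.18, limma adjusted p = 0.377 and 0.571). The other probe set of that locus, whose probes can likewise match other transcripts, gave -0.69 and -0.71. It was called lower in the averaged comparison (-0.70, SE 0.13, limma adjusted p = 0.0795). LOC_Os07g42924 lay the other way, at 1338 to 2045 in the FL478 control and 2086 to 2736 under salt, and at 1288 and 1365 in the IR29 control and 2035 to 2482 under salt. Its groups did not overlap in either genotype, and its log2 differences of 0.47 and 0.70 were not called (limma adjusted p = 0.522 and 0.602).

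The steps before and beside fermentation were read from 5 lists drawn by symbol, in which 32 of 39 matched genes had a probe set. Of these 32 none was called in either genotype. The 15 glycolysis genes had medians of -0.02 log2 in FL478 and -0.12 in IR29. In FL478 8 were lower and 7 higher, and in IR29 10 were lower and 5 higher. Those with an unadjusted limma p under 0.05 numbered 3 and 4 of 15, against 8.97% and 6.18% of all probe sets. Salt arrays lay wholly below controls in both genotypes for FBA3, ENO1, HXK6 and the HXK2 gene LOC4326547. Of all probe sets 1.57% had this pattern. HXK6, a hexokinase, had -0.79 in FL478 and -0.70 in IR29 (SE 0.26 and 0.29, limma adjusted p = 0.374 and 0.766), and the triosephosphate isomerase TPI had -0.02 and -0.12. Sucrose synthases, which open the route from sucrose, had medians of -0.08 and 0.12 over 6 genes. Among them SUS3 gave 1256, 620.0 and 734.4 in the FL478 control against 163.7, 179.8 and 427.0 under salt, without overlap (log2 -1.69, SE 0.41, limma adjusted p = 0.224), and 0.38 in IR29 with overlap. The difference between its responses was 2.07 (SE 0.62, limma adjusted p = 0.987).

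Genes tied to low oxygen had no common direction, with 4 lower and 5 higher in FL478 and 5 lower and 4 higher in IR29. Over these 9 genes the median was 0.08 in FL478 and -0.09 in IR29, and the haemoglobin genes NSHB1 and NSHB2 had -0.15 and -0.12 in FL478 and -0.28 and -0.25 in IR29. PPDK2, a pyruvate orthophosphate dikinase, had the largest difference of the list, on a probe set whose probes can also match other transcripts. Its signal was 27873, 31847 and 8592 in the FL478 control, 14612, 22693 and 3061 in FL478 salt, 19916 and 19239 in the IR29 control and 4040, 5794 and 1222 in IR29 salt. Replicate 3 was again the lowest array of its groups, and the groups were separated in IR29 but not in FL478. The log2 difference was -0.97 in FL478 and -2.66 in IR29 (SE 0.80 and 0.90, limma adjusted p = 0.792 and 0.644). AOX1, the alternative oxidase that takes electrons past part of the respiratory chain, had -1.57 and -0.66 (SE 0.46 and 0.52, limma adjusted p = 0.316 and 0.947). ALDH5F1, the only gene of the aldehyde dehydrogenase list, had 0.02 and -0.04. Other aldehyde dehydrogenases were not read, so these values do not describe the enzyme family.

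**Figure D4:**
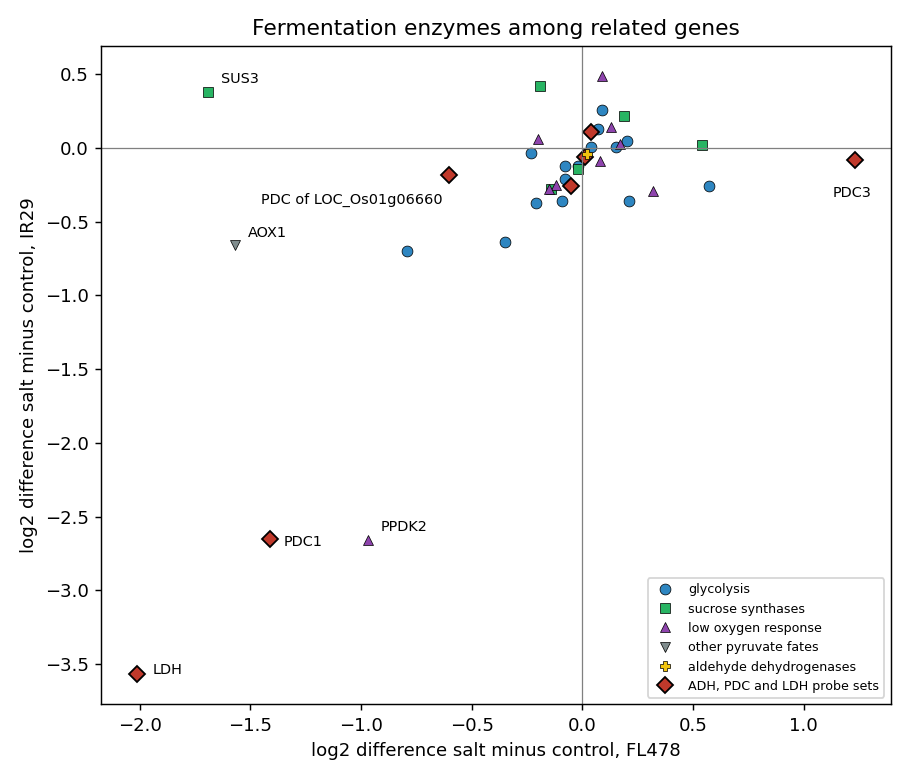
Log2 difference of salt minus control in FL478 (horizontal axis) and in IR29 (vertical axis) for the fermentation enzyme probe sets (diamonds) and for the 32 genes of 5 related lists, 1 probe set per gene. LDH at -2.01 and -3.57, PDC1 at -1.41 and -2.65 and PPDK2 at -0.97 and -2.66 lie farther from 0 than the glycolysis genes.

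The patterns most like those of the fermentation enzymes were sought by Pearson's r over the 11 arrays among 17882 probe sets of a single named gene above the median level. Arrays share group and scaling, so r is a description. For LDH the 5 nearest had r from 0.955 to 0.974. They were LOC4348769, LOC9268392, PGI-A (the cytosolic glucose-6-phosphate isomerase A of glycolysis, r 0.962), LOC4328812, which the study's tables describe as a citrate synthase (r 0.961), and LOC4336883, described as a vacuolar ATP synthase subunit (r 0.955). PGI-A itself had a smaller log2 difference, at -0.31 in FL478 and -0.64 in IR29 (limma adjusted p = 0.671 and 0.610). For the isozyme of LOC_Os01g06660 the nearest 5 had r from 0.900 to 0.927 and included the thioredoxin gene TRXH (r 0.900) and 2 probe sets called in FL478, LOC4352284 at -1.42 and LOC4352915 at -1.11 (limma adjusted p = 0.077 for each). The tables describe LOC4352284 as an anthocyanidin glucosyltransferase and LOC4352915 as an ATPase. For ADH2 the 5 nearest had r from 0.938 to 0.968 and for PDC1 from 0.959 to 0.973, and of these 10 the annotation names only cap2, with PDC1 at r 0.959.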

How the data were processed

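The deposited table holds linear signal intensity values that the authors made with GCOS (version not given in the sources used here), per the labels, scaled to a common trimmed mean. The study itself tested RMA values, which were not used here. The table has 57381 probe sets, of which 123 are controls of the manufacturer and were dropped. Values were taken as log2(signal + 32) and fitted in limma 3.58.1 (R 4.3.3) with 1 mean for each of the 4 groups on all 11 arrays (7 residual and 3 prior degrees of freedom), and p-values were adjusted by Benjamini-Hochberg over 57258 probe sets. Simulated data with known answers (200 changed probe sets, 3 runs) served to test the procedure, and 13.3% of its calls were false. No further normalization was applied, and a strong shift of many transcripts would be hidden by the common scaling. The labels call the replicates biological but name no separate plants or tanks, so a p-value measures the spread between these samples.

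The members and lists were chosen with earlier results of these data known. Named genes are all members, related probe sets by the descriptions in the study's tables, and the 5 nearest patterns of the isozyme of LOC_Os01g06660, of LDH and, since ADH1 has no probe set, of ADH2 and PDC1, which were chosen after their values were seen, as were the genes named from the lists. A list gene is read by its brightest probe set. Probes of the NSHB1 and PGI-A probe sets can also match other transcripts. Lists were drawn by symbol and miss genes under other names, and some hexokinases share synonyms. A single gene is annotated for 22436 probe sets, more than one for 95, and no gene for 34727. No sequence is printed because none was at hand here. In FL478, deviations from the group means correlated between same-numbered control and salt arrays at 0.33, 0.14 and 0.19, so these numbers were taken to pair the FL478 arrays. In IR29 the values were -0.14 and 0.09, and the numbers were not used as pairs there or between genotypes. Alternatives were an offset of 64, a floor of 32, quantile normalization, restriction to brighter probe sets (above the median level), an intensity trend with robust variance, a replicate block, two-class SAM, an adjusted p under 0.05, each array left out and, added after the data were seen, a GAPDH covariate and a block on the FL478 arrays alone. Tables and figures were made with Python 3.11.15, pandas 2.3.3, numpy 2.4.6 and matplotlib 3.10.9.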

Additional observations from a re-analysis of the deposited data

How the results depend on the processing

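The values for LDH, PDC1 and the isozyme of LOC_Os01g06660 in the 2 salt comparisons kept their sign under every alternative run, though PDC1 ranged from -2.21 to -0.37 in FL478 and LDH from -4.24 to -2.90 in IR29 with single arrays left out. No member was called in either genotype except with an intensity trend and robust variance, which called 1 in FL478, the isozyme of LOC_Os01g06660 (limma adjusted p = 0.0998, range over its alternatives 0.0998 to 0.652). In the averaged comparison 0 members were called at an adjusted p under 0.05, with a floor of 32 (LDH adjusted p = 0.133) and with the GAPDH covariate, and 2, LDH and PDC1, with the replicate block. Leaving out single arrays gave 0 to 1. In the other comparisons the numbers were not taken as pairs, since same-numbered arrays correlated at -0.14 and 0.09 within IR29, 0 and 0.23 between the genotypes in control and 0.25, 0.10 and 0.02 under salt. FL478 control and IR29 salt, which are not compared, correlated at 0.15, 0.34 and 0.19. With the replicate block, 1 member, PDC1, was called in IR29 against FL478, at -2.23 in control (adjusted p = 0.059) and -2.67 under salt (adjusted p = 0.00733), and at -1.63 in the averaged comparison (adjusted p = 0.0473). The block changed no other call on the members.

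Signs turned only for values between -0.48 and 0.48, all of ADH2, PDC2 and PDC3. With the block they were -0.03 for ADH2 between genotypes in control, 0.05 and 0.11 for the PDC2 probe sets in the difference between responses, and in IR29 0.13 for the second PDC2 probe set and 0.01 for PDC3. With the covariate, ADH2 was -0.14 in FL478 and -0.10 in IR29, and the second PDC2 probe set -0.29 in FL478, where quantile normalization gave -0.03. With single arrays left out (a lone IR29 control is assumed to vary like the other groups), ADH2 ranged from -0.15 to 0.30 in FL478, -0.08 to 0.30 in IR29, -0.19 to 0.26 in their difference, and -0.04 to 0.33 and -0.04 to 0.41 between genotypes in control and under salt. The first PDC2 probe set ranged from -0.44 to 0.35, -0.84 to 0.32 and -0.79 to 0.37 in the first 3 of these and from -1.06 to 0.10 in control, the second from -0.22 to 0.26, -0.46 to 0.34, -0.48 to 0.32 and -0.59 to 0.21, and PDC3 in IR29 from -0.29 to 0.13.

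Calls over the whole array moved more than those of the members. Against 97 in FL478 there were 0 to 256 over the alternatives, with 24 by SAM, against 3 in IR29 there were 0 to 80, against 0 for the difference 0 to 41, against 342 in control 86 to 527, against 1000 under salt 432 to 1418 and against 313 averaged 0 to 653. PDC3 is dim, and the offset shrinks differences of dim probe sets.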
